A study of Mus musculus with 15 samples.

Results

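The 6 ligands Ereg, Areg, Hbegf, Tgfa, Btc and Epgn and the 3 receptors Egfr, Erbb2 and Erbb3 of the epidermal growth factor (EGF) family were followed in epithelial cells shaken off the mouse jejunum, before and after a peanut challenge by gavage. These 9 genes were taken by name from 52844 genes, and their deposited transcript estimates were summed per gene. The mice were CC027/GeniUnc, a strain of the Collaborative Cross, and their RNA was sequenced in 5 groups of 3 libraries each. The sensitized controls had received 2 mg of peanut extract by gavage once a week for 3 weeks and 5 mg in week 4, and were not challenged. The next 3 groups were sensitized in the same way and then given 12 mg of peanut extract, with the cells taken 30, 60 or 120 min later. The PBS mice received PBS in place of peanut and were not challenged. The 15 titles carry different numbers, so the libraries were taken as 15 mice. Age and sex are not given in the labels used here, and groups given PBS and then peanut, or sensitized and then gavaged without peanut, were not analysed here. Time after gavage, handling and peanut itself therefore cannot be told apart in any comparison with unchallenged mice.

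EGF family ligands are made as membrane-anchored precursors, and a protease, mainly ADAM17, cuts them free to act on the same cell or its neighbours. All bind the EGF receptor (EGFR, encoded by Egfr) or its relatives through one small folded module held by 3 disulfide bonds. A bound receptor pairs with itself or with ERBB2 or ERBB3. ERBB2 has no known ligand and ERBB3 has little kinase activity of its own, so each works mainly in pairs. The paired receptors signal through RAS and the ERK kinases and through PI3 kinase. In the gut epithelium this signalling is known for driving crypt cell growth and repair after injury.

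The ligands share this module, and their sequence outside it was not compared here. The coding sequences of the module, from the first to the last cysteine codon, are shown from the GENCODE M21 transcripts, because this is the part that makes the genes 1 family. The cysteine codons are in capitals. The module of Ereg is at chr5:91088496-91089111 (plus strand), that of Areg at chr5:91143614-91144364 (plus strand), and that of Tgfa at chr6:86263200-86269960 (plus strand), all in mm10. The module of Btc is at chr5:91362421-91366197 (minus strand) and that of Epgn at chr5:91031152-91032237 (plus strand). In each gene it lies in the coding parts of exons 3 and 4, with an intron between them that is not shown.
Ereg: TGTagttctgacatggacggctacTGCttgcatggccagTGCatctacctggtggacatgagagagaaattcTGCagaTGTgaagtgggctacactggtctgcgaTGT
Areg: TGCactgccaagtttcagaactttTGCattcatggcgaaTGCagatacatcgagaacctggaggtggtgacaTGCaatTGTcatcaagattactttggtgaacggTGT
Tgfa: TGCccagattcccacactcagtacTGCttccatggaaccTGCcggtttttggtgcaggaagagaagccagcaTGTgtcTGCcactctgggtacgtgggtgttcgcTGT
Btc: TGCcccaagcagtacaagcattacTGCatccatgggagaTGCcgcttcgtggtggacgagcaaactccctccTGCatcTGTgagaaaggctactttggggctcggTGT
Epgn: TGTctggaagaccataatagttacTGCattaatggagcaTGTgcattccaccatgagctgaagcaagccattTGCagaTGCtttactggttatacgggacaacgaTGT
The modules were found by a pattern that required 6 cysteines and fixed or bounded the spacing between them, so much of this likeness was set by the search. Hbegf was not searched. All 5 modules are 36 codons long, and their 6 cysteine codons stand at the same places. The bases between them differ: pairs of modules are identical at 45.4% (Ereg and Tgfa) to 62.0% (Btc and Tgfa) of the 108 bases. Epgn, Ereg, Areg and Btc also lie next to each other on chromosome 5, within 375.5 kb and with no other protein-coding gene between them. The gap between Ereg and Areg is 46.0 kb.

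The libraries held 15661513 to 22691349 estimated reads each. Mitochondrially encoded genes took 13.76% to 33.24% of the counts per library. The label of epithelial cells was checked with 6 epithelial markers (Epcam, Cdh1, Vil1, Krt8, Krt19 and Krt20), which were all present and summed to 9470 to 13000 CPM (read counts scaled to a common library total) in the 15 libraries. Markers of stroma summed to 6.63 to 23.8 CPM in 14 libraries and to 211 CPM in 30 min replicate 1. Leukocyte RNA was present too: B and plasma cell markers summed to 103 to 2030 CPM over the 15 libraries, and T cell markers to 19.1 to 183 CPM. In the PBS mice these sums were 611 to 2030 and 107 to 133 CPM. The cells were held for 75 min at room temperature before release, longer than the first 2 times after challenge. Egr1 and Fos, immediate early genes that ERK induces, were at 1100 to 1928 and at 920.4 to 1638 CPM over all 15 libraries, the unchallenged ones included. In bulk RNA of this kind, fewer cells of a type and less RNA per cell cannot be told apart.

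Amphiregulin (Areg) and the heparin-binding ligand Hbegf made up nearly all of the ligand RNA. Levels of different genes are compared in TPM (a Salmon abundance scaled to a common total), which account for length. Over the 15 libraries Areg averaged 204.9 ± 90.6 TPM, Hbegf 150.4 ± 46.5, Ereg 13.5 ± 9.34, Tgfa 5.67 ± 1.28, Btc 2.54 ± 1.10 and Epgn 0.114 ± 0.140 TPM (SD over 15 libraries). Areg and Hbegf together took 90.2% to 95.8% of the summed ligand TPM in a library. Among the receptors, Erbb3 averaged 48.9 ± 11.0 TPM, Erbb2 26.7 ± 4.40 and Egfr 3.49 ± 1.13 TPM. RNA of the ligand-binding EGF receptor itself was thus the lowest of the 3 receptors in mean level.

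Not every neighbour in this order was distinct. Areg was above Hbegf in 13 of 15 libraries, and Hbegf above Erbb3 and Erbb3 above Erbb2 in all 15. Erbb2 was above Ereg in all 12 libraries outside the 120 min group and below it in all 3 of that group. In CPM, which ignore length, Erbb2 was above Ereg in those 3 libraries too, so this crossing was seen in TPM only. The part of the length estimates in it was not tested. Ereg was above Tgfa, and Tgfa above Egfr, in 14 of 15. Egfr was above Btc in 10 of 15, so these neighbours were not separated. Btc was above Epgn in all 15.

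**Figure D1:**
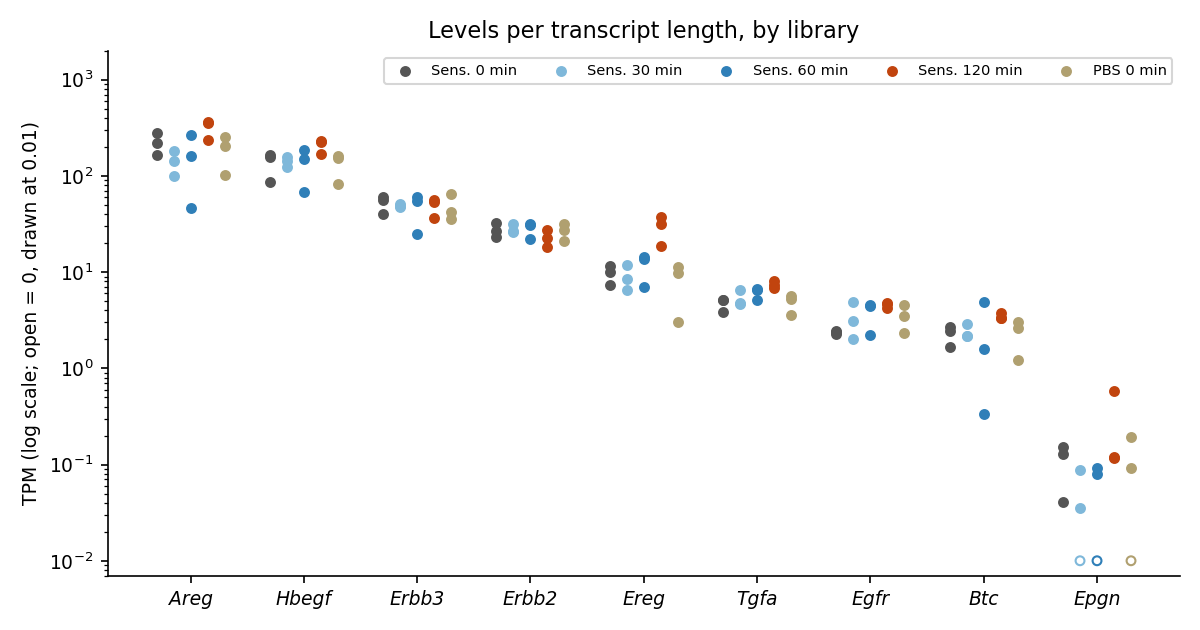
TPM (log scale) of the 9 genes in each of the 15 libraries, coloured by group, with genes ordered by their mean over all libraries and open points for libraries at 0. Areg and Hbegf stand at the top. The 3 libraries of the 120 min group are the highest for Ereg, a pattern not counted over all genes.

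Epiregulin (Ereg) was higher at 120 min than at 30 min after challenge, and it was the 1 member of the family that passed the test in any comparison. Ereg, a ligand of EGFR and ERBB4, was at 33.6, 35.4 and 31.8 CPM in the sensitized controls, at 21.5, 30.4 and 40.9 CPM at 30 min, at 42.4, 45.4 and 40.3 CPM at 60 min, at 93.4, 114.5 and 57.2 CPM at 120 min and at 13.4, 33.9 and 32.7 CPM in the PBS mice. All 3 libraries of the 120 min group were above all 12 others. How many of all genes had this pattern was not counted. The lowest library was 1 of the PBS mice. Ereg averaged 88.4 ± 29.0 CPM at 120 min and 30.9 ± 9.71 CPM at 30 min (SD, n = 3 each). The log2 fold change was 1.51 ± 0.33 (standard error), or 2.86-fold with a 95% interval of 1.75 to 4.66 (edgeR quasi-likelihood test, Benjamini-Hochberg adjusted p = 0.0497 over 14968 genes). In this comparison 1.01% of all genes tested passed in either direction and 0.595% were called higher. The call was at the threshold, and it was lost when genes with low counts were kept (adjusted p = 0.108), with transcript lengths taken into account (0.0625) and with only these 2 groups in the fit (0.117). It held in DESeq2 (adjusted p = 0.000267) and limma-voom (0.0375), and with RLE size factors or without mitochondrial genes (both 0.0497). DESeq2 called 838 genes in this comparison, where edgeR called 151. Whichever library was left out, Ereg no longer passed (log2 fold changes of 1.27 to 1.77, adjusted p up to 0.195), except for 120 min replicate 3 (adjusted p = 0.0496) and PBS replicate 1 (adjusted p = 0.0185).

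Against the sensitized controls, which averaged 33.6 ± 1.80 CPM, Ereg at 120 min had a log2 fold change of 1.39 ± 0.33, or 2.63-fold with an interval of 1.61 to 4.28, and did not pass (edgeR adjusted p = 0.0547). In this comparison 1.26% of genes passed. The adjusted p was 0.0304 with the PBS mice as the control, 0.00953 with both unchallenged groups together as the control, 0.0436 with only these 2 groups in the fit, 0.000719 in DESeq2 and 0.0189 without PBS replicate 1. It was 0.129 when genes with low counts were kept. DESeq2 called 846 genes in this comparison, where edgeR called 188. Over all alternatives the log2 fold change stayed between 1.16 and 1.73. Against 60 min, where the mean was 42.7 ± 2.56 CPM, the log2 fold change was 1.05 ± 0.32 (adjusted p = 0.115), and 1.12% of genes passed. This difference passed in DESeq2 (adjusted p = 0.0176), which called 951 genes here where edgeR called 168. It also passed without PBS replicate 1 (adjusted p = 0.0466). The groups of Ereg did not overlap in any of these 3 comparisons. Of all genes tested, 12.1% were higher without overlap at 120 min than at 30 min, 13.3% than in the controls and 10.2% than at 60 min.

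**Figure D2:**
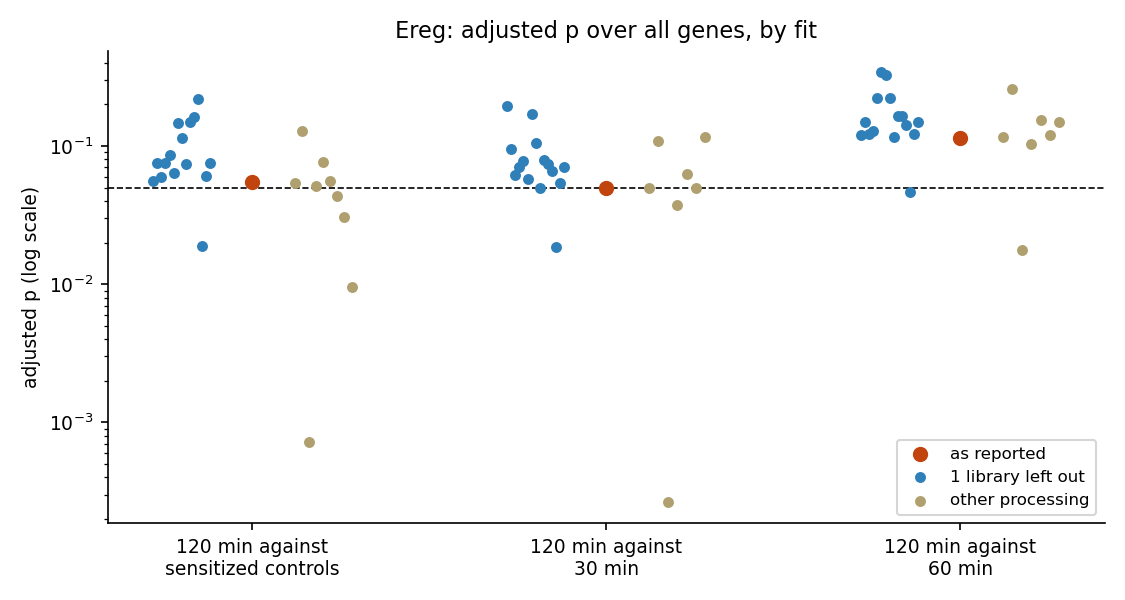
Adjusted p of Ereg (log scale, edgeR unless the alternative is another tool) in 3 comparisons at 120 min, as reported, with 1 library left out, and with other processing. The dashed line is the threshold of 0.05; the reported values of 0.0547, 0.0497 and 0.115 lie near or above it, and most alternatives lie above it.

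Levels of other cell types' markers and the share of mitochondrial counts moved beside Ereg. The 6 B and plasma cell markers summed to 103 to 359 CPM at 120 min, against 462 to 1580 CPM at 30 min and 779 to 1100 CPM in the sensitized controls. The 8 Paneth cell genes summed to 1820 to 3660 CPM at 120 min, against 4510 to 8300 CPM at 30 min and 3920 to 4720 CPM in the controls. Both lists were lower at 120 min without overlap, while the 6 epithelial markers were higher, at 12600 to 13000 CPM against 9590 to 11400 CPM at 30 min and 11100 to 11300 CPM in the controls. Of the 7 Paneth genes tested, 4 were called lower at 120 min against 30 min, 4 against 60 min and 0 against the controls. Of all genes, 1.01%, 1.12% and 1.26% passed in these comparisons. The 8 T cell markers summed to 19.1 to 48.2 CPM at 120 min, against 25.6 to 183 CPM at 30 min and 49.9 to 179 CPM in the controls. The 7 mast cell markers (19.0 to 25.3 CPM at 120 min, against 30.7 to 47.6 at 30 min and 27.9 to 46.8 in the controls) and the 6 tuft cell markers (2.63 to 4.42 CPM at 120 min, against 4.48 to 10.8 at 30 min and 4.49 to 8.66 in the controls) were also lower without overlap. The 7 goblet cell genes summed to 7520 to 8280 CPM at 120 min, against 8050 to 12500 CPM at 30 min and 9890 to 16100 CPM in the controls, and the 9 enterocyte genes to 15000 to 23700 CPM, against 11200 to 12300 and 13900 to 20500 CPM. The 10 proliferation genes summed to 510 to 768 CPM at 120 min, against 490 to 727 at 30 min and 393 to 472 in the controls. For the 4 villus tip genes this was 816 to 1120 CPM, against 618 to 787 and 734 to 891. For the 5 erythroid genes it was 77.5 to 87.3 CPM, against 18.9 to 54.3 and 125 to 179. Mitochondrially encoded genes took 13.76% to 16.6% of the counts at 120 min, against 16.92% to 20.56% at 30 min and 17.15% to 26.73% in the controls. At 60 min and in the PBS mice, B and plasma cell markers summed to 806 to 1190 and 611 to 2030 CPM. Paneth genes summed to 6680 to 7760 and 4460 to 6730 CPM, and epithelial markers to 9470 to 10000 and 10200 to 11600 CPM. Against these 2 groups the mitochondrial share at 120 min overlapped both. Mast cell markers overlapped the PBS mice (25.0 to 56.7 CPM), and tuft cell markers overlapped 60 min (3.53 to 7.86 CPM). The part of these differences in the Ereg values was not tested. The 8 myeloid markers (44.4 to 59.0 CPM at 120 min, against 39.2 to 110 CPM at 30 min and 39.5 to 55.8 CPM in the controls) overlapped between the groups. So did the 8 stromal markers, at 11.0 to 16.4 CPM at 120 min, against 6.63 to 211 CPM at 30 min and 8.71 to 23.8 CPM in the controls. No gene of the B cell, Paneth, T cell, myeloid or epithelial lists was at 0 in all libraries of a group; the stromal gene Pdgfra was at 0 in all 3 libraries at 120 min and in the 3 controls.

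Areg, a low-affinity ligand of EGFR, had the highest or second highest level of the ligands in every library. It was at 258.0, 308.7 and 249.5 CPM in the sensitized controls, at 167.1, 124.1 and 216.1 CPM at 30 min, at 270.5, 184.8 and 90.7 CPM at 60 min, at 372.3, 394.0 and 256.6 CPM at 120 min, and at 152.1, 239.0 and 257.4 CPM in the PBS mice. The 30 min libraries all lay below the sensitized controls and below the 120 min libraries, whereas the 60 min libraries were widely spread. Of all genes tested, 12.1% were higher without overlap at 120 min than at 30 min. None of the Areg differences passed. The log2 fold change was 1.01 ± 0.34 at 120 min against 30 min (edgeR adjusted p = 0.155) and 0.90 ± 0.34 against 60 min (adjusted p = 0.171). It was −0.69 ± 0.34 at 30 min against the controls (adjusted p = 0.976), where 0% of genes passed (755 had an unadjusted p under 0.05, and DESeq2 called 6) and 7.84% were lower without overlap. The value for 120 against 60 min was 1.28 without 60 min replicate 1, where it passed (adjusted p = 0.0414), and 0.56 without 60 min replicate 3. DESeq2 called Areg at 120 min against both 30 min (adjusted p = 0.0296) and 60 min (adjusted p = 0.0476). In these comparisons DESeq2 called 838 and 951 genes in all, where edgeR called 151 and 168. Per library, Areg exceeded Ereg 3.44 to 4.48 times in CPM at 120 min, against 2.25 to 6.37 times at 60 min, 4.09 to 7.76 times at 30 min and 7.69 to 8.73 times in the sensitized controls. The ratios at 120 min thus overlapped those at 30 and 60 min.

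The 250 bases before the Areg start are shown because the cAMP response element (CRE) is a known feature of this promoter. Whether it bears on the Areg values was not tested. The sequence is from the RefSeq promoter table for GRCm38, chr5:91139349-91139598 (plus strand), with matches to the CRE motif TGACGTCA or its core TGACG, on either strand, in capitals.
Areg: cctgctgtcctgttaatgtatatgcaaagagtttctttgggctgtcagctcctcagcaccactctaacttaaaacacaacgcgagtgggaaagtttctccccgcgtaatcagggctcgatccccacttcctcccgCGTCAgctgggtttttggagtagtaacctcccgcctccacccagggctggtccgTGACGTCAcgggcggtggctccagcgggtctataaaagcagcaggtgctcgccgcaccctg
A full CRE began 61 bases before the start, and the core, which the full one holds on both strands, was matched once more on its own. Of the 6 members with an entry in that table (Epgn, Areg, Btc, Tgfa, Egfr and Erbb2), Areg alone held the full CRE, which 1.55% of all 32851 promoter windows held. Ereg, Hbegf and Erbb3 had no entry, so their promoters were not searched. The core TGACG was matched in Epgn, Areg, Btc and Erbb2 and in 17.77% of all windows. The AP-1 motif TGANTCA was matched in 0 of the 6 members and in 6.75% of all windows.

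Hbegf and Tgfa, both high-affinity ligands of EGFR, had higher means at 120 min than in the sensitized controls, and neither passed. Hbegf was at 382.6, 371.3 and 270.9 CPM in the sensitized controls, at 295.8, 360.7 and 389.6 CPM at 30 min, at 386.3, 352.0 and 283.8 CPM at 60 min, at 487.0, 511.2 and 374.6 CPM at 120 min, and at 248.9, 387.0 and 330.3 CPM in the PBS mice. One library of the 120 min group lay within the range of the controls, so the groups overlapped. Against the controls Hbegf had a log2 fold change of 0.42 ± 0.19 (95% interval 0.02 to 0.82, edgeR adjusted p = 0.257).

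Tgfa was at 23.9, 22.2 and 23.4 CPM in the sensitized controls, at 21.1, 31.8 and 22.8 CPM at 30 min, at 24.7, 30.5 and 42.1 CPM at 60 min, at 32.4, 30.5 and 29.6 CPM at 120 min, and at 20.97, 25.1 and 23.5 CPM in the PBS mice. Both the 60 and the 120 min libraries lay above all 3 sensitized controls, which were close together. Of all genes, 9.37% and 13.3% were higher without overlap at these 2 times. Tgfa had a log2 fold change of 0.48 ± 0.18 at 60 min (interval 0.10 to 0.87, adjusted p = 0.308), where 0.00668% of genes passed, and 0.41 ± 0.18 at 120 min (interval 0.03 to 0.79, adjusted p = 0.25). The 60 min value was 0.26 without 60 min replicate 3, the library with 33.24% mitochondrial counts.

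Btc and Epgn were the 2 scarcest ligands. Betacellulin (Btc), which binds EGFR and ERBB4, was at 1.40 to 8.21 CPM over the 15 libraries. Its lowest value was in 60 min replicate 3 and its highest in 120 min replicate 2. Btc did not pass in any comparison, with adjusted p of 0.412 (120 min against 60 min) at the lowest. The 60 min value against the controls was −0.48 ± 0.43, and at 120 min it was 0.17 ± 0.42 with an interval of −0.72 to 1.06. Epigen (Epgn), a low-affinity ligand of EGFR, had 41 estimated reads in all 15 libraries together and was at 0 in 3 of them. Of these reads 16 were in 1 library, 120 min replicate 3. It was under the minimum for testing, so 8 of the 9 members were tested.

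**Figure D3:**
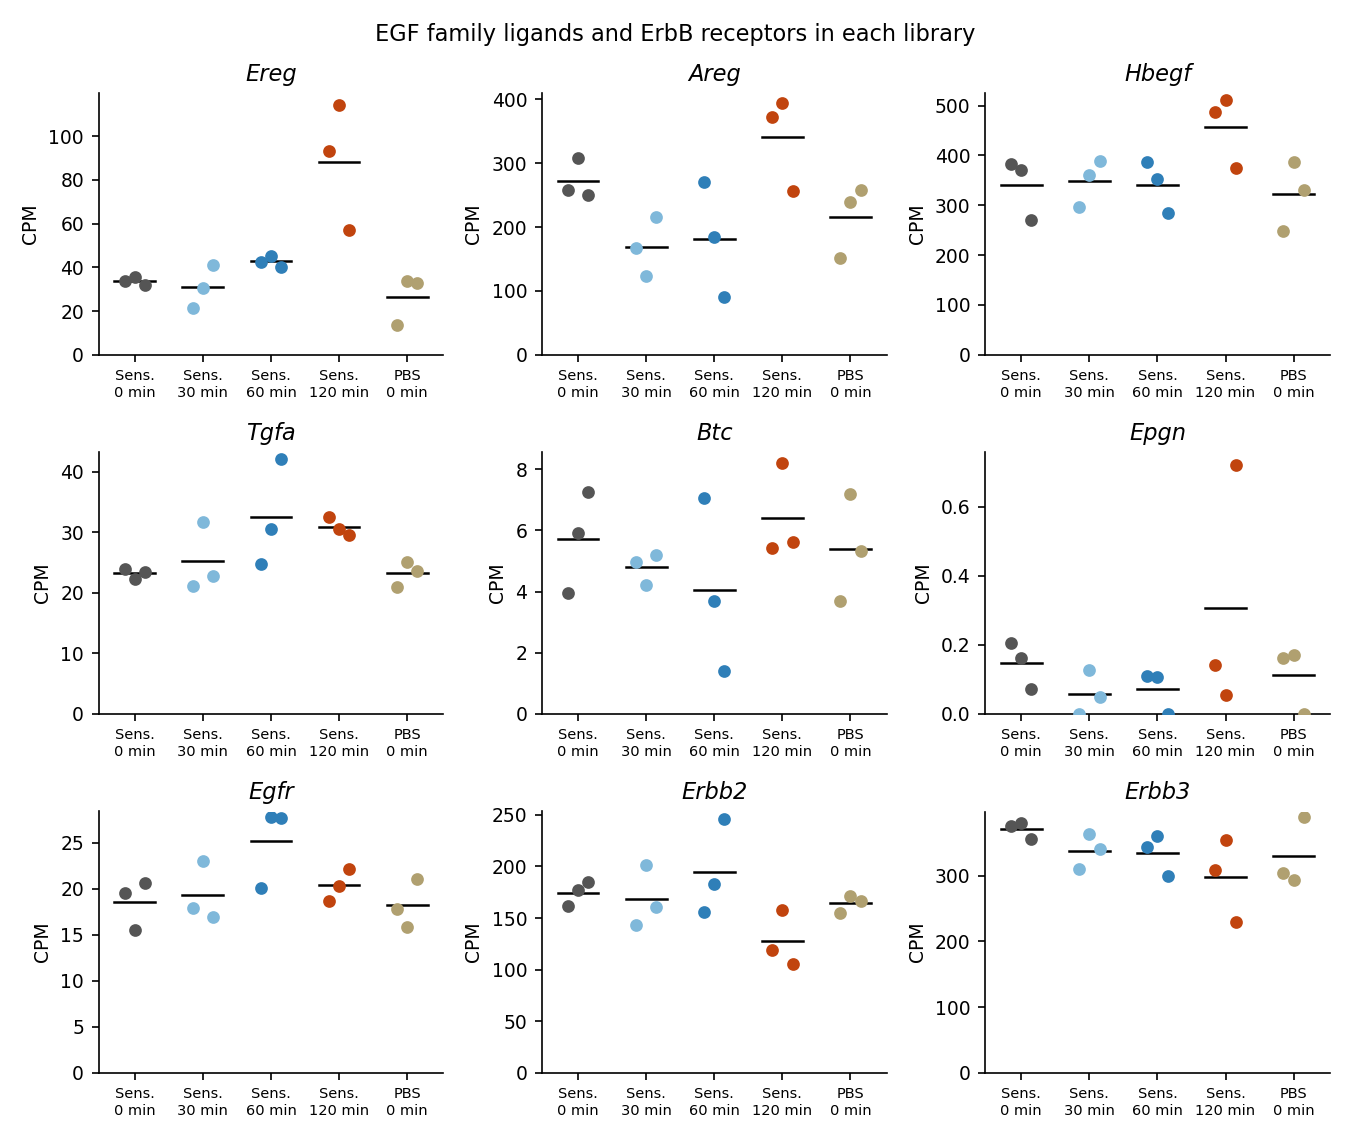
CPM of the 9 genes in each library (points) and the mean of 3 libraries (lines) in the sensitized controls (0 min), at 30, 60 and 120 min after challenge, and in the PBS mice. The 120 min libraries of Ereg, at 57.2 to 114.5 CPM, stand above all other groups, a pattern not counted over all genes. Those of Erbb2 lie below the sensitized controls, as was so for 13.3% of all genes.

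Of the receptors, Erbb2 and Erbb3 had lower means at 120 min than in the sensitized controls without passing the test, and Egfr was closer to the controls. Erbb2, the receptor without a known ligand, was at 161.4, 177.1 and 184.7 CPM in the sensitized controls, at 143.0, 201.4 and 161.1 CPM at 30 min, at 155.7, 183.2 and 246.2 CPM at 60 min, at 119.3, 157.3 and 105.2 CPM at 120 min, and at 155.0, 171.7 and 166.7 CPM in the PBS mice. The 120 min libraries were all below the sensitized controls, as was so for 13.3% of all genes. These libraries overlapped the 60 min libraries in 1 library. The log2 fold change was −0.62 ± 0.18 at 120 against 60 min (edgeR adjusted p = 0.0949) and −0.45 ± 0.18 against the controls (adjusted p = 0.201). The first passed without 60 min replicate 1 (−0.78, adjusted p = 0.0264), without 120 min replicate 2 (−0.82, adjusted p = 0.0439), in DESeq2 (adjusted p = 0.0231) and when genes with low counts were kept (adjusted p = 0.0295). DESeq2 called 951 genes at 120 against 60 min, where edgeR called 168.

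Erbb3, the partner receptor with the most RNA, was at 375.6, 380.4 and 355.4 CPM in the sensitized controls, at 310.5, 363.0 and 340.8 CPM at 30 min, at 343.1, 360.2 and 299.5 CPM at 60 min, at 308.7, 354.6 and 229.1 CPM at 120 min, and at 304.1, 294.2 and 389.7 CPM in the PBS mice. The 120 min libraries lay below the sensitized controls, the nearest by less than 1 CPM, and overlapped all other groups. Against the controls Erbb3 had a log2 fold change of −0.32 ± 0.15 (interval −0.65 to 0.01, edgeR adjusted p = 0.302). Without 120 min replicate 3 it was −0.16. Of all genes, 13.3% were lower without overlap at 120 min than in the controls.

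Egfr was at 19.5, 15.5 and 20.6 CPM in the sensitized controls, at 17.9, 23.04 and 16.9 CPM at 30 min, at 20.1, 27.8 and 27.7 CPM at 60 min, at 18.7, 20.3 and 22.1 CPM at 120 min, and at 17.8, 15.9 and 21.01 CPM in the PBS mice. Its highest libraries were 2 of the 3 at 60 min. Egfr had a log2 fold change of 0.44 ± 0.17 at 60 min (interval 0.07 to 0.81, edgeR adjusted p = 0.322) and 0.14 ± 0.17 at 120 min (interval −0.23 to 0.50, adjusted p = 0.737). The 120 min value was 0.70 (adjusted p = 0.233) when the transcript length was taken into account. The reads of Egfr were divided among several transcripts in shares that varied between libraries. The full-length coding transcript Egfr-201 (10208 bases) took 28.5% to 68.6% of the Egfr TPM in a library, and the shorter coding transcript Egfr-202 (2943 bases) 21.8% to 51.6%. The short non-coding transcript Egfr-204 (716 bases) took 28.5% of the TPM at 120 min and 0% in the sensitized controls, against 30.3% in the PBS mice. It was above 0 in 8 of 15 libraries. The summed Egfr TPM of 4.57 ± 0.284 at 120 min and 2.37 ± 0.0839 in the sensitized controls (SD, n = 3 each) differed more than the CPM did. Egfr-204 alone averaged 1.3 TPM at 120 min and 0 in the sensitized controls. Ereg, which has a single transcript, also differed more in TPM (29.3 ± 9.41 at 120 min and 9.62 ± 2.05 in the controls) than in CPM. Unlike CPM, TPM carry no TMM adjustment. The parts of this and of the transcript shares in these gaps were not tested. For the other members 1 coding transcript took most of the TPM over all libraries: all of it for Ereg, Areg and Erbb3, 96.5% for Hbegf, 98.4% for Tgfa, 90.1% for Erbb2, 84.7% for Btc and 86.4% for Epgn.

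**Figure D4:**
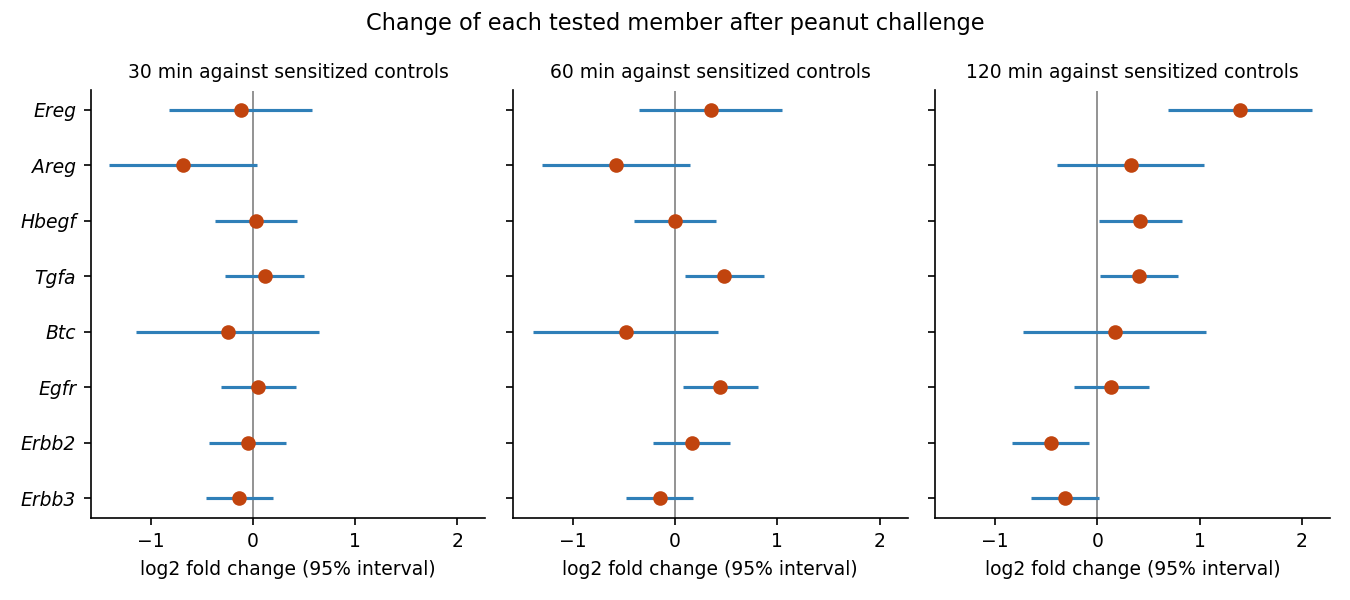
Log2 fold changes (points) with 95% intervals (lines) of the 8 tested members at 30, 60 and 120 min against the sensitized controls. Ereg at 120 min, at 1.39, is the farthest from 0, and no interval at 30 min excludes 0.

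Sensitization alone did not separate any member. Against the PBS mice, the sensitized controls had log2 fold changes from 0.00 (Tgfa) to 0.33 (Ereg and Areg) in the 8 tested members, all with an edgeR adjusted p of 1. In this comparison 0% of genes passed; 212 of 14968 had an unadjusted p under 0.05, and DESeq2 called 6 genes, none of them a member. For the average of the 3 times against the sensitized controls, again 0% of genes passed, with 1573 genes at an unadjusted p under 0.05 and 172 called by DESeq2. Ereg had 0.54 ± 0.27 (adjusted p = 0.51) and Tgfa 0.34 ± 0.15 (adjusted p = 0.45). In the joint test of any difference among the 5 groups, 0.347% of genes passed and Ereg came nearest of the members (adjusted p = 0.0779), followed by Tgfa (adjusted p = 0.287).

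The genes with the most similar course over the 15 libraries differed from member to member. They were picked for likeness among 10787 genes, so their correlations are descriptions. For Ereg these were Abhd17c (Pearson r = 0.944, Spearman rho = 0.875), Pak4, a p21-activated kinase (0.943 and 0.829), and B4galt6, a lactosylceramide synthase (0.937 and 0.889). Nearest to Areg were Slc25a25, Arhgap27 and F3, which encodes tissue factor (r of 0.95, 0.947 and 0.944). Nearest to Hbegf were the EGR co-repressor Nab2 (0.958), endothelin 1 (Edn1, 0.926) and Emp1 (0.919). Among the genes most like Erbb2 were Snph (0.957) and Pcmtd1 (0.944). Without the 2 libraries farthest from the median of the member, r was 0.916 for Abhd17c, 0.901 for Slc25a25, 0.948 for Nab2 and 0.892 for Snph. The nearest genes of Tgfa were Otub1, Carmil1 and Apc (r of 0.958, 0.958 and 0.949), and those of Egfr, Btc and Erbb3 began with Ralgapb (0.885), Acap3 (0.914) and Slc25a36 (0.915). For these last 3, r without the 2 farthest libraries was 0.799, 0.752 and 0.749. It was lower for Abhd17c, Slc25a25, Nab2 and Snph too. Leaving out the extreme libraries of a member narrows its range, so a lower r cannot show that a pair rests on them.

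The remaining ligands and receptors of the family were scarce. Of Egf, Nrg1, Nrg2, Nrg3, Nrg4 and Erbb4, only Egf and the ERBB4 ligand Nrg4 had enough reads to be tested. The ERBB4 receptor gene Erbb4, a receptor for Ereg and Btc, had 1 estimated read in all libraries together. Egf was at 2.25 to 7.77 CPM and Nrg4 at 1.79 to 8.71 CPM. Neither passed in any comparison: at 120 min against the controls Egf had −0.54 ± 0.33 and Nrg4 −0.72 ± 0.42 (edgeR adjusted p = 0.421 and 0.394).

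Of 75 further genes listed for the pathway (the 6 above, 7 of ligand shedding, 26 adaptors and kinases, 21 negative regulators and 15 ERK targets), 1 passed in 1 comparison, 120 against 60 min, in which 1.12% of all genes passed. The ERK target Myc, a growth-promoting transcription factor, was higher at 120 min, at 30.3, 25.7 and 45.7 CPM, than at 60 min, at 19.2, 20.2 and 11.3 CPM. These groups did not overlap, as was so for 10.2% of all genes in this direction. The log2 fold change was 0.999 ± 0.21 (edgeR adjusted p = 0.0386). Leaving out 60 min replicate 3 gave 0.76 and leaving out 120 min replicate 3 gave 0.71, with adjusted p of 0.127 and 0.125, so Myc no longer passed. Nor did it pass without 60 min replicate 2 (0.0758), without 120 min replicate 1 (0.132), without 30 min replicate 3, PBS replicate 3 or any 1 of the sensitized controls (adjusted p of 0.0515 to 0.0614), and with transcript lengths taken into account (adjusted p = 0.0894). It was also lost with only these 2 groups in the fit (adjusted p = 0.22). Myc was at 22.3, 21.3 and 23.03 CPM in the sensitized controls, and against these the 120 min value was 0.61 ± 0.21 (adjusted p = 0.148). At 120 min against the controls the 15 ERK targets had a median log2 fold change of 0.04, with 9 positive and 6 negative. It was −0.28 at 60 min against the controls, with 3 positive and 12 negative, and 0.32 at 120 against 60 min, with 10 positive and 5 negative. The medians of all genes were −0.01, −0.02 and 0.00 in these comparisons.

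Genes that cut ligands free or relay the signal did not pass in any comparison, and those with the smallest joint p are given here. Of the shedding genes, Rhbdf1 (iRhom1), which brings ADAM17 to the cell surface, was at 31.6, 38.6 and 25.2 CPM at 120 min and at 21.3, 23.9 and 15.96 CPM in the sensitized controls, with a log2 fold change of 0.64 ± 0.21 (edgeR adjusted p = 0.135). Of the protease genes themselves, Adam17 was at −0.19 ± 0.14 and Adam10 at 0.08 ± 0.10. Timp3, an inhibitor of ADAM17, was at 7.63, 8.62 and 4.70 CPM in the controls, at 22.6, 16.4 and 8.94 CPM at 30 min, at 14.8, 16.5 and 9.99 CPM at 60 min and at 10.2, 9.03 and 12.2 CPM at 120 min. Its log2 fold change was 1.19 ± 0.39 at 30 min, 0.97 ± 0.39 at 60 min and 0.57 ± 0.39 at 120 min (edgeR adjusted p of 0.941, 0.332 and 0.475). Its highest value was in 30 min replicate 1, the library with the most stromal marker RNA. For the whole list of 7 the median at 120 min was 0.08, beside −0.01 for all genes.

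Among adaptors and kinases, 23 of 26 had positive log2 fold changes at 120 min against the controls. Their median was 0.10, beside −0.01 for all genes. At 30 and at 60 min 17 of 26 were positive, and at 120 against 60 min 13 of 26, with a median of −0.02. The genes share the same libraries, so these counts are descriptions. MEK2 (Map2k2), a kinase that activates ERK, was at 257.2, 232.0 and 240.1 CPM at 120 min and at 203.6, 199.0 and 201.2 CPM in the controls (0.27 ± 0.11, edgeR adjusted p = 0.223). The phosphatase gene Ptpn11 (SHP2) was at 93.8, 86.9 and 92.1 CPM at 120 min and at 72.6, 74.3 and 65.8 CPM in the controls (0.36 ± 0.11, adjusted p = 0.12). In both genes, picked for a small joint p, the 120 min libraries lay above all 3 controls, as was so for 13.3% of all genes, and neither passed.

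Negative regulators, many of which ERK itself induces, were mixed, with 14 of 21 positive and 7 negative at 120 min and a median of 0.11. Errfi1 (MIG6), which binds and blocks EGFR, was at 427.6, 590.9 and 404.1 CPM at 120 min and at 320.0, 355.3 and 259.0 CPM in the controls (0.61 ± 0.20, edgeR adjusted p = 0.138). The RAS-ERK inhibitor Spry1 was at 142.9, 132.0 and 126.6 against 83.8, 89.5 and 74.9 CPM (0.69 ± 0.29, adjusted p = 0.24), and the ERK phosphatase Dusp5 at 542.2, 611.1 and 442.3 against 385.7, 401.1 and 387.1 CPM (0.44 ± 0.19, adjusted p = 0.247). Socs5, an adaptor that promotes loss of EGFR, was lower at 120 min, at 1.60, 2.03 and 2.48 against 3.74, 3.39 and 3.60 CPM (−0.81 ± 0.28, adjusted p = 0.158). All 4 were without overlap between these groups, as were 13.3% of all genes in each direction, and none passed. These genes were picked for a small joint p.

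**Figure D5:**
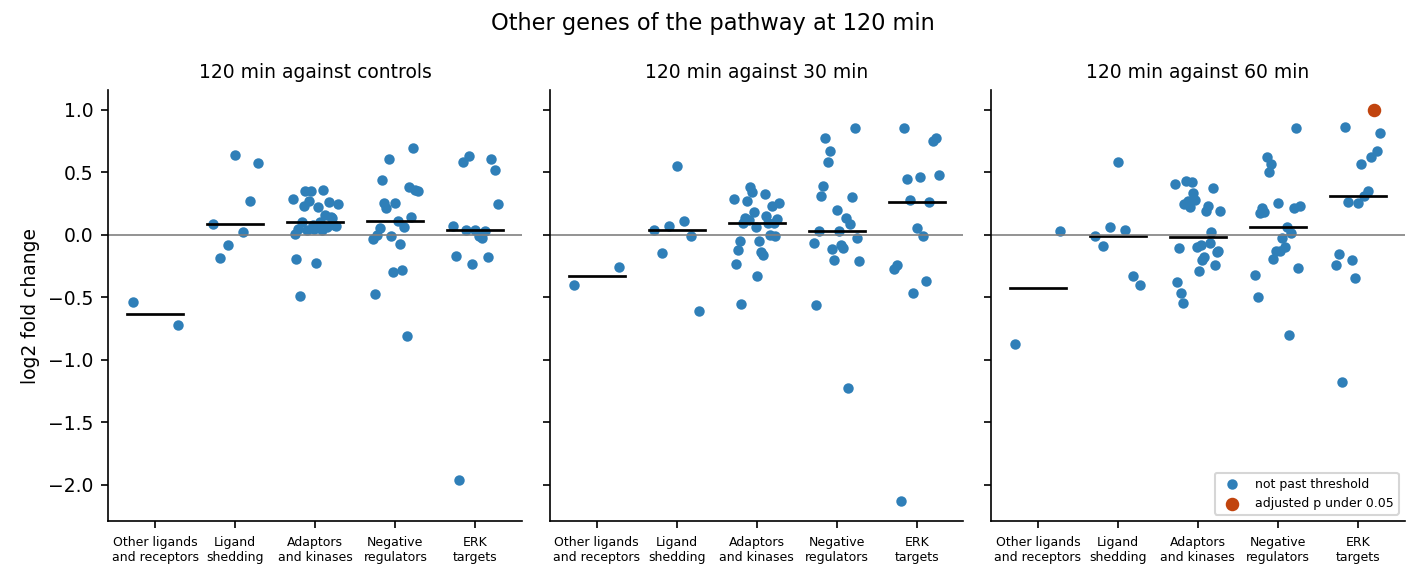
Log2 fold changes of single genes (points) and the list medians (lines) for 5 lists of the EGF receptor pathway at 120 min against the sensitized controls, 30 min and 60 min. The 1 gene past the threshold, Myc at 0.999 against 60 min, is in orange.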

How the data were processed

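The submitters' processing notes name cutadapt 1.18 and Salmon 1.2.1 as tools and mm10 as the build; for the annotation, no release is stated in the labels or headers. The deposited tables hold, per the file headers, an estimated count of reads and a TPM for each of 139058 transcripts, both from the authors' quantification of 151 bp reads, and the transcript's length and effective length in bases. Transcripts were summed to 52844 genes by GENCODE M21; the 1115 transcripts with no match held 0.374% to 0.602% of the counts. Sums were rounded for the count model. Of 28797 genes with a count, 14968 passed filterByExpr and entered 1 quasi-likelihood fit over the 15 libraries (edgeR 4.0.16, R 4.3.3, TMM normalization, robust dispersions, 10 residual degrees of freedom). Its common coefficient of biological variation came to 0.26. P-values were adjusted by Benjamini-Hochberg over all genes tested, with a threshold of 0.05. TPM were described and not tested. On simulated counts the fit was tested before use. Alternatives used DESeq2 1.42.0 and limma 3.58.1, another normalization, no filter on low counts, transcript lengths, no mitochondrial genes, other controls and each library left out in turn.

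Named genes are the 9 members; of each pathway list the genes past the threshold or, where none was, up to 4 with the smallest joint p; and for each tested member the 3 genes with the highest Pearson correlation of log2 CPM (prior count of 2) among genes of at least 2 CPM, leaving out unnamed gene models and segments of antigen receptors. Some genes that this rule names are not reported here. The members and lists were chosen with earlier results of these data known. Replicate numbers only name libraries. Nothing in the labels says more on the source of replicates, so p-values measure the spread between these libraries. Salmon divides shared reads among transcripts, so shares of single transcripts are estimates. Counting intervals are not given, because the fit covers them. Matplotlib 3.10.9 drew the plots.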

Additional observations from a re-analysis of the deposited data

Results flagged for a closer look

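The change in Ereg after challenge differed between 120 min and 30 min, as tested directly between these times: the log2 fold change was 1.51 (edgeR adjusted p = 0.0497), with all 3 libraries at 120 min above all 3 at 30 min. The call was lost in 13 of the 15 fits with 1 library left out. For the ERK target Myc, the change after challenge differed between 120 and 60 min, with a log2 fold change of 1.0 (edgeR adjusted p = 0.0386) and all 3 libraries at 120 min above all 3 at 60 min. The lowest of the 15 Myc values was in 60 min replicate 3.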

How the results depend on the processing

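No value of a member or named pathway gene that passed the test turned its direction under any alternative. Over the alternatives, 1442 of 1472 member values and 2721 of 2760 of named pathway genes stayed on their side of the threshold. Nearly all of these had not passed as reported, so their staying says little about the calls. The only calls among them were Ereg at 120 against 30 min and Myc at 120 against 60 min. These made up all of the 16 and 11 values that were lost, while 14 and 28 values newly passed. In 70 and 117 values, none of which had passed, the sign was the other one. Counts of genes past the threshold depended on the tool. DESeq2 called 846 genes at 120 min against the controls, 838 against 30 min, 951 against 60 min, 1121 in the joint test, 189 at 60 min, 6 at 30 min, 5 at 60 against 30 min, 172 for the mean of the 3 times and 6 for sensitized against PBS mice. Of the 8 members tested in the main fit, DESeq2 called 1, 2, 3 and 1 in the first 4 of these comparisons. The pathway lists held 2 further ligands, 7 shedding genes, 26 adaptors and kinases, 21 negative regulators and 15 ERK targets that were tested. Of these pathway genes DESeq2 called 4, 7, 7 and 7. The main fit tested 14968 genes in all. Whether the members or pathway lists held more calls than other genes was not tested. With no filter on low counts, 279 genes were called at 120 against 60 min, 380 in the joint test, 49 at 60 min and 32 for the mean of the times, with members at 0 (120 against 30 min) and 1 (120 against 60 min) and 1 pathway gene in both the joint test and 120 against 30 min. With transcript lengths the counts were 34, 32 and 46 at 120 min against the controls, 30 and 60 min, 12 jointly and 0 at 60 min, and 0 members and 0 pathway genes were called between times. With only the groups compared they were 4 at 120 against 30 min, 0 against 60 min and 0 at 60 min, with 0 members against 30 min, 1 member and 1 pathway gene against the controls and 0 pathway genes against 60 min. With PBS mice as the control, 0 genes were called at 60 min and 1 member at 120 min. With both unchallenged groups as the control, these were 644 genes, 1 member and 4 pathway genes at 120 min, 0 genes at 60 min and 24 for the mean of the times. Limma-voom called 0 genes at 60 min and 26 jointly. RLE size factors, and likewise leaving out mitochondrial genes, gave 1 pathway gene at 120 against 30 min. By CPM, which ignores length, Hbegf ranked 1, Erbb3 2 and Areg 3 in level.

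With 1 library left out, the counts of genes were 7 to 344 at 120 min against the controls, 4 to 241 against 30 min, 0 to 1151 against 60 min, 0 to 180 jointly, 0 to 385 at 60 min, 0 to 1 at 30 min and at 60 against 30 min, and 0 to 5 for the mean of the times. The main fit tested 8 members. Members called were 0 to 1 at 120 min against the controls, against 30 min and jointly, and 0 to 2 against 60 min. Pathway genes called were 0 to 3 at 120 against 30 min, 0 to 8 against 60 min and 0 to 1 at 60 min. Whether these counts exceed those of other genes was not tested. Causes were not tested. No paired analysis was possible because the titles of the groups share no numbers, and replicate numbers here pair nothing. Groups of 3 libraries limit the precision: the 95% intervals of Btc spanned changes in both directions, and Epgn was too scarce to test.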
